A study of Zea mays with 6 samples.

Results

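Transcripts of 6 circadian clock genes were compared between wild-type and hda108 mutant maize in the developing leaf. The genes were taken by identifier from a table of 39604 genes. The morning genes were lhy1 and cca1, and the evening genes were toc1, prr1, gi1 and gi2. RNA came from the developing 11th leaf, still wrapped by older leaves, of greenhouse plants at vegetative stage 8. The study sequenced 3 libraries of wild type and 3 of plants labelled hda108/hda108, described as biological replicates. The mutated gene, HDA108, codes for a histone deacetylase, which takes acetyl groups off histone tails. The deposited table gives FPKM, fragments scaled by transcript length and sequencing depth, with 1 value made by the authors for each gene and genotype. There is therefore no replicate check of any difference below, and no SD, n or p-value is given. The allele, the hour of harvest and the depth behind the values are not given in the sources used here.

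The circadian clock is a loop of genes that repress one another in turn through the day. In Arabidopsis, the MYB proteins LHY and CCA1 accumulate around dawn and repress evening genes, among them TOC1, which is also called PRR1. TOC1 is a pseudo-response regulator that accumulates around dusk and represses LHY and CCA1. GIGANTEA, whose transcript peaks late in the day, helps to stabilise an F-box protein that marks TOC1 for degradation, and it also acts in flowering time. Transcripts of these genes cycle over the day, so each level depends on the hour of harvest, whose part in the values below was not tested.

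The names of lhy1, cca1, toc1 and prr1 are those under which these identifiers were chosen. The RefSeq table used for names calls gi1 GI, gigantea1 and gigz1a, and it calls gi2 gigz1b. Its entries for lhy1, cca1 and toc1 carry no clock name, and prr1 matched no entry. On the B73 RefGen_v3 build, lhy1 (GRMZM2G014902) spans 32527797 to 32560791 and toc1 (GRMZM2G020081) spans 140726568 to 140729617, both on chromosome 4. The other 4 lie elsewhere: cca1 (GRMZM2G474769) on chromosome 10 from 78333990 to 78337257, prr1 (GRMZM2G148453) on chromosome 5 from 185463237 to 185465012, gi1 (GRMZM2G107101) on chromosome 8 from 21104079 to 21112365, and gi2 (GRMZM5G844173) on chromosome 3 from 9306264 to 9317285. No other gene of the table overlaps any of these 6 loci.

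Both morning genes were higher in hda108 than in wild type, and all 4 evening genes were lower. The gene lhy1 had 9.05 FPKM in wild type against 23.8 FPKM in hda108. The gene cca1 had 13.9 FPKM in wild type against 21.8 FPKM in hda108. Their levels in hda108 were thus close to each other, while in wild type lhy1 was the lower of the pair. On the evening side, toc1 had 3.14 FPKM in wild type against 1.32 FPKM in hda108. The gene prr1 had 3.30 FPKM in wild type against 1.79 FPKM in hda108. These were the lowest values of the 6 genes in both genotypes. In a bulk sample of a leaf, fewer cells with a transcript and less of it per cell cannot be told apart. The GIGANTEA genes were the more abundant evening genes. The gene gi1 had 73.9 FPKM in wild type against 57.0 FPKM in hda108, and gi2 had 20.1 FPKM in wild type against 12.96 FPKM in hda108.

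**Figure D1:**
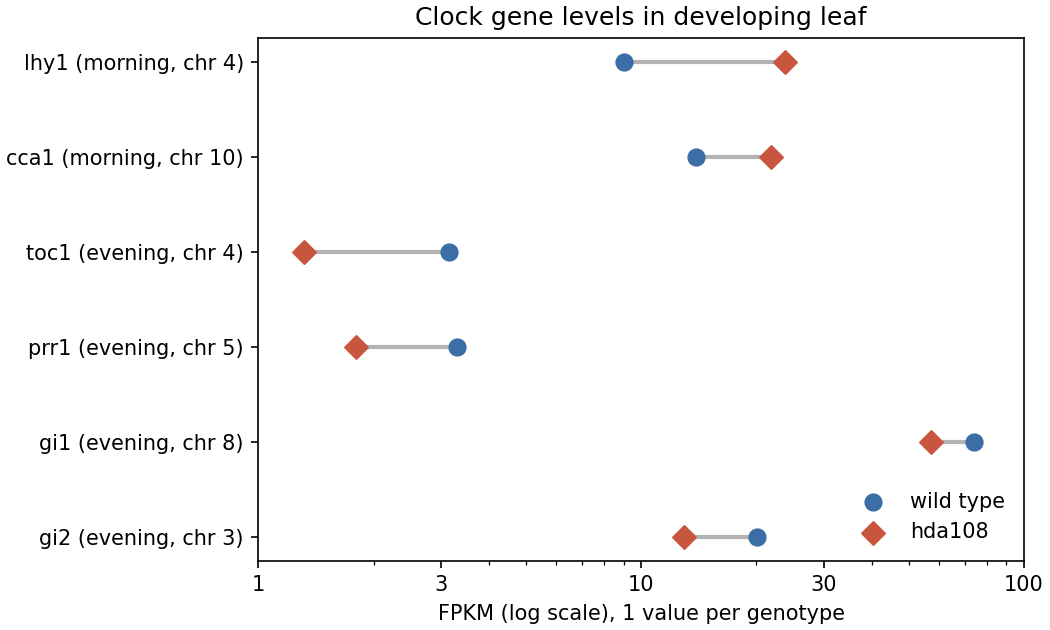
FPKM of the 6 clock genes on a logarithmic axis, with a circle for wild type and a diamond for hda108, each the authors' single value for the genotype. The diamonds of lhy1 and cca1 lie to the right of the circles and those of the 4 evening genes to the left, from gi1 at 73.9 and 57.0 FPKM down to toc1 at 3.14 and 1.32 FPKM.

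Differences were taken on a log2 scale after adding 0.5 to the FPKM, with wild type subtracted from hda108, a scale that understates the difference of genes with low values. A gene was counted as different when it reached 1 in either direction, which is 2-fold. All 6 clock genes were among the 21057 genes that could be compared, those with both values above 0 and a mean of at least 1 FPKM. The log2 difference was 1.35 for lhy1 and 0.64 for cca1. It was -1.002 for toc1, -0.73 for prr1, -0.37 for gi1 and -0.61 for gi2. The median of the 6 was -0.49 and that of the 4 evening genes was -0.67, whereas the median over all compared genes was 0.06, and 59.7% of all compared genes were above 0.

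The 2-fold rule was met upward by lhy1 alone (2.54-fold), 1 of the 6 clock genes, against a background of 1.48% of all compared genes. It was met downward by toc1 alone (2.002-fold), against a background of 0.836%. The value of toc1 lay just past the limit, and with a pseudocount of 1 FPKM in place of 0.5 its log2 difference was -0.84. With no pseudocount the ratio was 2.38-fold lower for toc1 and 1.84-fold lower for prr1. With a limit of 1.5-fold, chosen after the values had been seen, 2 clock genes were higher, lhy1 and cca1, against 5.32% of all compared genes. At that limit 3 were lower, toc1, prr1 and gi2, against 3.63%, and gi1 (1.29-fold lower) was the gene that did not reach it. The clock genes were proposed with these values known, so their counts describe the set and test nothing.

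Set singly among all compared genes, a difference at least as large and in the same direction was found for 0.641% of genes in the case of lhy1 and 0.826% in the case of toc1. Among compared genes of chromosome 4 alone, these shares were larger, 1.1% for lhy1 and 2.43% for toc1. Over all compared genes the share was 2.16% for prr1, 3.28% for gi2, 4.39% for cca1 and 8.43% for gi1. The gene with the highest level, gi1, thus had the most common size of difference. The mean level of gi1 lay above that of 94.6% of compared genes, and lhy1, cca1 and gi2 lay above 73.7%, 75.9% and 73.9%. The mean levels of toc1 and prr1 lay above only 14.2% and 17.3%, and the depth behind these low values is unknown.

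**Figure D2:**
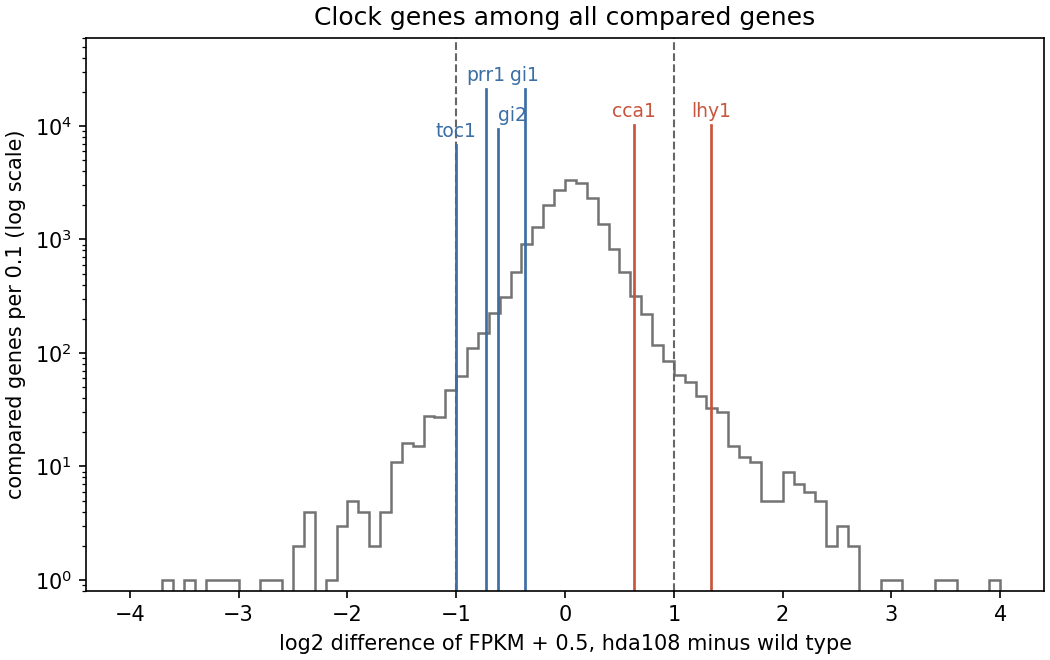
Number of compared genes (logarithmic axis) in steps of 0.1 of the log2 difference (FPKM + 0.5; wild type subtracted from hda108); genes beyond 4 are counted in the last step, coloured lines mark the 6 clock genes and dashed lines mark 2-fold. The line of lhy1 lies at 1.35 beyond the upper limit, that of toc1 on the lower limit, and the other 4 inside both.

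The genes form 3 pairs of like function, and the split of reads between similar copies is not described in the sources used here, so pair sums were also taken. The sum of lhy1 and cca1 was 22.9 FPKM in wild type against 45.6 FPKM in hda108, a ratio of 1.99. The sum of toc1 and prr1 was 6.44 FPKM in wild type against 3.11 FPKM in hda108, a ratio of 0.483. The sum of gi1 and gi2 was 94.0 FPKM in wild type against 69.99 FPKM in hda108, a ratio of 0.744. On the log2 scale without a pseudocount, the morning pair was 0.99 above its wild-type level, the TOC1-type pair was at -1.05 and the GIGANTEA pair was at -0.43.

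Within each pair the members did not differ to the same extent in these single values. Whether the gaps within pairs exceed the spread between replicates is unknown. The share of lhy1 in the morning pair was 39.5% in wild type and 52.1% in hda108. The share of toc1 in the TOC1-type pair was 48.8% in wild type and 42.4% in hda108. The share of gi1 in the GIGANTEA pair was 78.6% in wild type and 81.5% in hda108. In the morning and TOC1-type pairs the copy with the larger difference was the one on chromosome 4, where HDA108 also lies. Neither GIGANTEA gene lies on that chromosome, and of these gi2 had the larger log2 difference.

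The ratio of morning to evening transcripts within a genotype does not depend on a scaling factor between the genotypes. The sum of lhy1 and cca1 divided by that of toc1 and prr1 was 3.56 in wild type and 14.7 in hda108, a 4.12-fold higher ratio in hda108 and a log2 change of 2.04. With gi1 and gi2 added to the evening sum, the ratio was 0.228 in wild type and 0.624 in hda108, a log2 change of 1.45. The chromosome 4 genes alone, lhy1 over toc1, gave 2.88 in wild type and 18.0 in hda108, a log2 change of 2.65. The genes off that chromosome, cca1 over prr1, gave 4.205 in wild type and 12.2 in hda108, a log2 change of 1.53. With both morning genes higher and all evening genes lower, each of these ratios had to be higher in hda108. Their directions therefore add nothing to the single values. The change of cca1 over prr1, without any gene of chromosome 4, was smaller than that of lhy1 over toc1.

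The order of levels also differed between genotypes. In wild type it ran, from high to low, gi1, gi2, cca1, lhy1, prr1, toc1. In hda108 it ran gi1, lhy1, cca1, gi2, prr1, toc1. The genes lhy1 and gi2 exchanged places, and the other 4 kept theirs. Without replicates it cannot be said which neighbours in either order differ beyond their spread. The gene gi1 made up 59.9% of the summed FPKM of the 6 genes in wild type and 48.0% in hda108. The share of lhy1 was 7.33% in wild type and 20.0% in hda108. The sum itself was 123 FPKM in wild type against 119 FPKM in hda108.

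The level of cca1 could be set beside that of a second gene model. The RefSeq table joins GRMZM2G474769 with GRMZM2G175265 in 1 gene, and in the deposited table the latter lies on chromosome 10 from 78356796 to 78358456, 19.5 kb from the former. GRMZM2G175265 had 13.003 FPKM in wild type against 19.2 FPKM in hda108, a log2 difference of 0.55 beside the 0.64 of GRMZM2G474769. Both models were thus higher in hda108 by similar amounts. It was chosen after its values had been seen. If both belong to 1 transcript, their values come from different parts of the same molecules and are no independent measurement.

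Whether the genes around each clock gene also differed was examined, because lhy1 and toc1 share chromosome 4 with the mutated gene. HDA108 itself (GRMZM2G136067, from 65983217 to 65988818) had 10.9 FPKM in wild type against 3.06 FPKM in the column read as hda108. The gene lhy1 lies 33.4 Mb from it, with 229 compared genes between them, and toc1 lies 74.7 Mb from it on the other side, with 298 compared genes between. On chromosome 4 as a whole, the 2-fold rule was met upward by 2.33% and downward by 2.43% of compared genes, together 4.76%. Outside it the shares were 1.38% upward, 0.659% downward and 2.04% in either direction.

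The surroundings of toc1 and lhy1 were unlike each other. Of the 20 compared genes nearest to toc1, 10 on either side, 7 differed at least 2-fold, 3 higher and 4 lower, beside the 2.31% of all compared genes. The gene next to it on one side, GRMZM2G104768, had 56.8 FPKM in wild type against 288 FPKM in hda108. The gene next to it on the other side, GRMZM2G133838, had 38.4 FPKM in wild type against 18.3 FPKM in hda108. Both flanking genes therefore met the rule, in opposite directions. Farther off, GRMZM2G094083 had 81.6 FPKM in wild type against 7.98 FPKM in hda108, and GRMZM2G040508 had 25.2 FPKM in wild type against 1.83 FPKM in hda108. The gene PPCK2, named for a kinase of phosphoenolpyruvate carboxylase, was higher, at 6.37 FPKM in wild type against 16.3 FPKM in hda108. The median of the 20 was -0.02. Apart from the flanking genes, those named here were chosen after their values were seen.

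Of the 20 compared genes nearest to lhy1, 1 differed at least 2-fold. It was the gene next to it, CAOMT (GRMZM5G814904), of lignin synthesis, with 306 FPKM in wild type against 138 FPKM in hda108. CAOMT was lower while lhy1 was higher, and its value is uncertain because it shares its locus entry with another gene, AC196475.3_FG004. That gene was more abundant and slightly higher in hda108, at 950 FPKM in wild type against 1129 FPKM in hda108. Apart from CAOMT, the other 19 lay between -0.43 and 0.74, so the 1.35 of lhy1 was above all 20. At least 1 such neighbour was found for 54.5% of compared genes of chromosome 4 and 34.6% of those on chromosomes 1 to 10. Of the 20 genes nearest to gi1, 2 were at least 2-fold higher and none lower, while gi1 was lower; on chromosomes 1 to 10, 8.35% of compared genes had 2 or more such neighbours. The nearer of them, GRMZM2G046359, had 2.05 FPKM in wild type against 4.93 FPKM in hda108. Around cca1, prr1 and gi2, 0 of 20 genes differed at least 2-fold. For cca1 these 20 include GRMZM2G175265.

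The contrast was also seen in wider windows. With 25 genes on either side, 14 of 50 differed at least 2-fold around toc1 and 1 of 50 around lhy1. Within 10 Mb, 16 of 109 compared genes (14.7%) did so around toc1 and 10 of 196 (5.1%) around lhy1. Within 10 Mb of the other 4 clock genes the share ranged from 0.66% around prr1 to 5.56% around cca1. On chromosomes 1 to 10, 22 of 20901 compared genes (0.105%) had 7 or more such genes among their 20 nearest, toc1 among them, and all 22 lie on chromosome 4. Neighbouring genes share most of their 20, so these 22 are not separate cases. For toc1 and for lhy1 alike, a segment of another background linked to the mutation and an effect of the mutation cannot be told apart in this design.

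**Figure D3:**
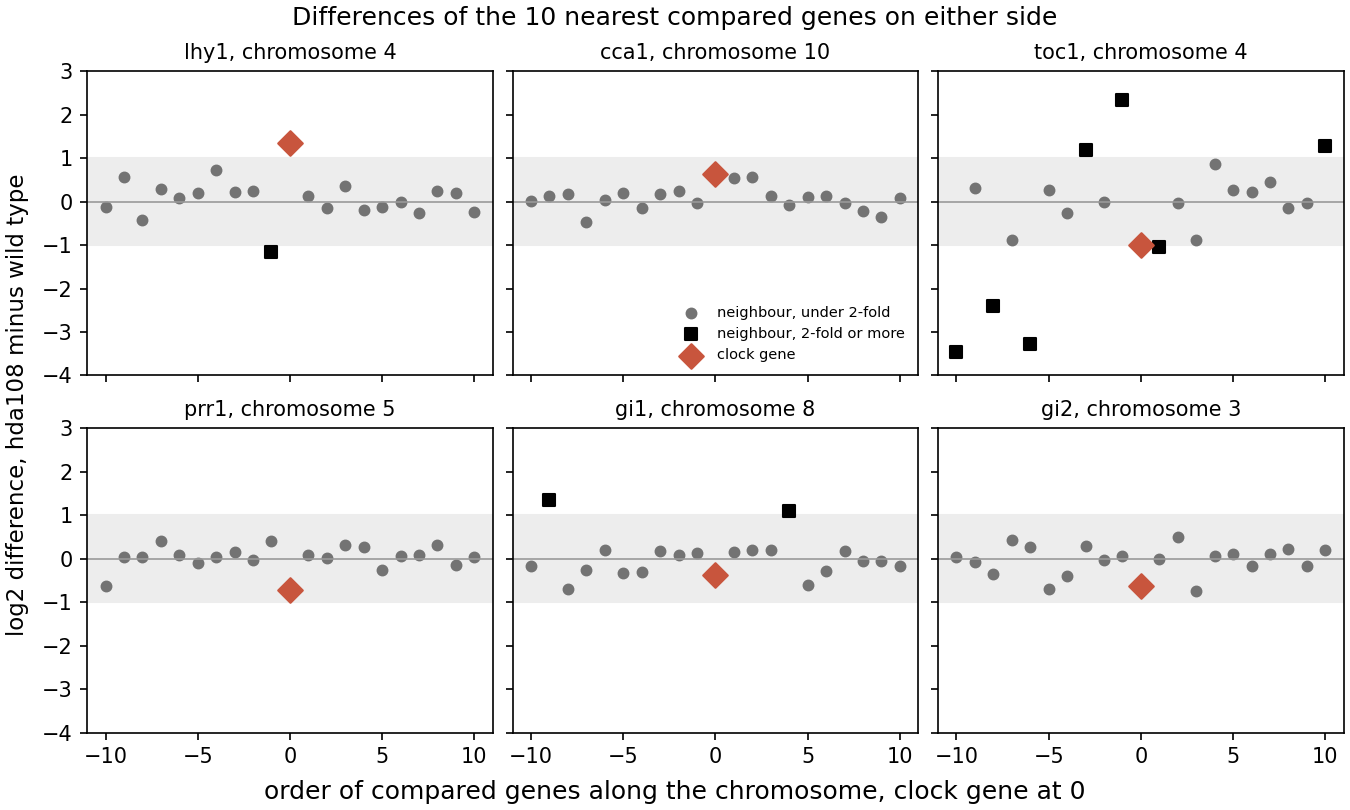
Log2 difference (FPKM + 0.5; wild type subtracted from hda108) of each clock gene (diamond, at 0) and of the 10 nearest compared genes on either side, in their order along the chromosome; squares mark neighbours of at least 2-fold and grey bands the range below 2-fold. Around toc1, 7 of 20 neighbours lie outside the band in both directions, around lhy1 1 and around gi1 2, and around cca1, prr1 and gi2 none.

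Other clock components were found by name in the RefSeq table, and few carry a name there. Of 4 identifiers beside the clock genes above, 3 could be compared, and 0 of them differed at least 2-fold in either direction, where 2.31% of all compared genes did. Their median log2 difference was -0.06. PRR59, a pseudo-response regulator gene of the same protein family as TOC1, had 7.98 FPKM in wild type against 6.34 FPKM in hda108 (-0.31). The gene listed as CK2 (GRMZM2G047855), for a subunit of casein kinase 2, which phosphorylates CCA1 in Arabidopsis, differed by -0.06. The gene ckb1, also of casein kinase 2, differed by 0.20. None of these 3 lies on chromosome 4. The identifier that could not be compared, also listed as CK2 (GRMZM2G347047), does lie there. It had 0.0023 FPKM in wild type against 0.023 FPKM in hda108.

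Light receptors and light signalling genes, listed as light input, gave 7 compared identifiers of 8. Of these, 6 had a difference below 0 and none met the 2-fold rule, with a median of -0.22. Over all compared genes, 40.3% were below 0 and 2.31% met the rule. PIF5, for a factor that binds phytochrome in Arabidopsis, had 1.73 FPKM in wild type against 0.944 FPKM in hda108. The phytochrome gene phyA2 had 3.20 FPKM in wild type against 1.99 FPKM in hda108. PHYB differed by -0.32, and the 2 gene models joined under PHYC differed by -0.22 and 0.26, in opposite directions. Genes known as outputs of the clock gave 9 compared identifiers, of which 8 were below 0 and none met the rule, with a median of -0.36, beside the same shares of all compared genes and their median of 0.06. A further 3 outputs named in RefSeq, Lhcb5-2, CAT3 and CAB1, had no identifier in the table. The compared outputs include ZCN8, a florigen gene, with 1.68 FPKM in wild type against 0.863 FPKM in hda108, the chlorophyll-binding protein genes cab-m1 (-0.52), lhcb4 (-0.49) and lhcb5 (-0.40), and conz1, a CONSTANS-like gene, which differed by 0.27. The highest output, Cab-m7, had 2836 FPKM in wild type against 2681 FPKM in hda108, an abundant leaf transcript in both genotypes. Of the 9 output identifiers, 7 encode chlorophyll-binding proteins, and some of both lists were close to 0, among them PhyB2 (-0.03), cab-m9 (-0.08) and Cab-m7 (-0.08).

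The genes whose pair of values was most like that of lhy1 and toc1 were looked up among 2031 other named compared genes. Likeness was the distance between the log2(FPKM + 0.5) values over 2 genotypes, so it rests on 2 points. Nearest to lhy1 were hdz10 on chromosome 2 (distance 0.42), bronze on chromosome 9 (0.45) and cpi2 on chromosome 8 (0.49). Each of these had a smaller difference than lhy1, from 0.66 to 0.78. Nearest to toc1 were EMB2219 on chromosome 7 (0.11), TPS9 (GRMZM2G122231) on chromosome 5 (0.14) and MYB38_1 on chromosome 4 (0.25).

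The direction of all 6 clock genes was the same with other scalings, which moved the values too little to turn any of them. Setting the median to 0 shifted each gene by 0.06, while the smallest difference was -0.37, for gi1. The same direction under these scalings is therefore no support for it. Other pseudocounts and filters were also tried, but these could not have changed the direction. A pseudocount cannot turn the direction of a gene, and a filter leaves its value unchanged or drops the gene. Under 7 alternatives the log2 difference of lhy1 ranged from 1.28 to 1.38. For gi1 the range over the same 7 was -0.43 to -0.37 and for gi2 it was -0.68 to -0.60. Over 8 alternatives, 1 of them the mean of both its gene models, cca1 ranged from 0.58 to 0.65. The values of toc1 and prr1 moved more with the pseudocount, from -1.19 to -0.84 and from -0.84 to -0.62 over 6 alternatives. Both have a mean under 5 FPKM, so the stricter filter gave them no value.

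**Figure D4:**
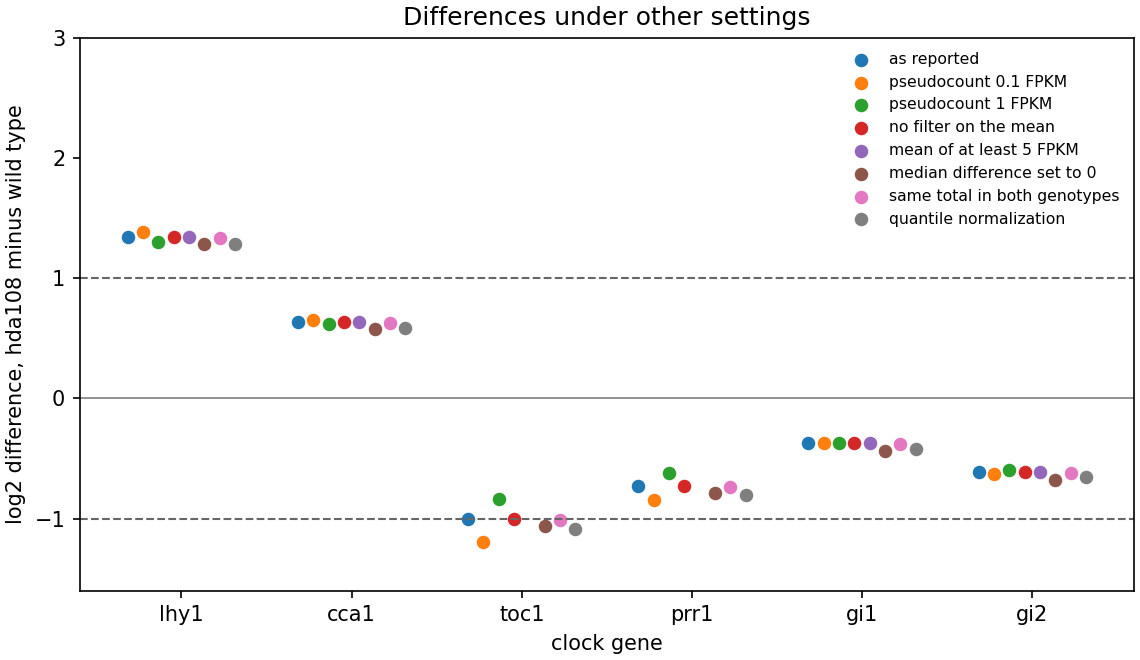
Log2 difference, hda108 minus wild type, of each clock gene as reported and under 7 other settings (2 pseudocounts, 2 filters, 3 scalings). For toc1 and prr1 there are 6, since the filter of at least 5 FPKM drops them. Dashed lines mark 2-fold. The points of lhy1 and cca1 stay above 0 and those of the evening genes below 0, and toc1 crosses the lower 2-fold line with a pseudocount of 1 FPKM.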

How the data were processed

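The deposited table holds FPKM values made by the authors, 1 per gene and genotype, from 3 libraries of each. Per the submitters' processing notes, the tools included SAMtools, Cuffdiff 2.2.1, Cufflinks, TopHat2 2.0.13, CASAVA 1.8 and Trimmomatic 0.33, with the build B73 RefGen_v3; roles and settings are not given in the sources used here. Libraries were RNA depleted of ribosomal RNA, strand-specific, per the labels' protocols. The column whose name begins with homo was taken to be the mutant. Sums were 478867 FPKM in wild type against 482019 FPKM in hda108; depth is unknown.

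Differences were log2(FPKM + 0.5), hda108 minus wild type, over all genes with both values above 0 and a mean of at least 1 FPKM, computed with Python 3.11.15, numpy 2.4.6 and pandas 2.3.3 and tested on simulated data; figures used matplotlib 3.10.9. Names came from the RefSeq table of Zm-B73-REFERENCE-NAM-5.0, where 18387 identifiers matched 1 entry. Lists were filled by symbols; toc34 genes (chloroplast import) and CCamK (a calcium-dependent kinase) matched by letters and were left out. The rule for named genes took all clock genes, HDA108 and list members past 2-fold or else the 4 largest. It also took the 3 nearest in value and the nearest neighbours past 2-fold. Genes added with values known were conz1, Cab-m7, cab-m9, PhyB2, the PHYC model at -0.22, GRMZM2G347047, AC196475.3_FG004, GRMZM2G175265 and the farther neighbours. Members and lists were chosen with earlier results of these data known. Promoter and protein comparisons were not made, since no sequences were used here.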

Additional observations from a re-analysis of the deposited data

How the results depend on the processing

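Alternatives covered pseudocounts of 0.1 and 1 FPKM, no filter, a mean of at least 5 FPKM, the median difference set to 0, equal totals and quantile normalization. The 2-fold rule was the threshold. Of 78 values under alternatives, 70 kept their direction and side of the threshold or stayed within 1.5 times. Part of this was fixed in advance, so the count is no measure of stability. A filter leaves the value of a single gene unchanged, and a pseudocount cannot turn its direction. With a pseudocount of 1 FPKM toc1 had -0.84, so 0 clock genes were 2-fold lower; with a mean of at least 5 FPKM toc1 was not compared and the count was also 0. At 1.5-fold, 2 clock genes were higher and 3 lower, against 5.32% and 3.63% of all compared genes. Of the 4 clock genes outside chromosome 4, 0 were 2-fold higher and 0 lower. Among all compared genes outside it, 1.38% were higher and 0.659% lower, so a count of 0 is near that share. The share of neighbours past 2-fold, over all 6 clock genes, was 8.33% with 10 genes on either side and 3.9% within 10 Mb, where more genes enter. The limit of 1.5-fold, the count outside chromosome 4 and the window of 10 Mb were chosen after seeing the data. For all compared genes, the share of 2-fold genes that were higher was 63.9% as reported, 56.5% with the median set to 0 and 55.4% with quantile normalization. The 311 higher and 176 lower genes became 133 and 93 with a mean of at least 5 FPKM.

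No paired analysis was possible because the table holds 1 value per genotype, and leaving out replicates was not run for the same reason. The search for sequence relatives and its stricter alternative were not run. Depth is unknown, so it cannot be said how precise the low values of toc1 and prr1 are.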
